A study of Mus musculus with 8 samples.

Results

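The genes described here encode 8 subunits of integrins that bind fibronectin, latent TGF-beta or other matrix proteins, Itga5, Itgav, Itga8, Itga9, Itgb1, Itgb3, Itgb5 and Itgb8. They were taken by gene name, and all 8 were present among the 13687 genes measured and among the 13665 genes that were tested. RNAseq was done on primary peritoneal mesothelial cells (MCs), the epithelium-like cells that line the abdominal cavity, digested from the parietal peritoneum of WT mice and of littermates carrying the B6.Cg-CAV1tm1mls/J null allele of caveolin-1 (CAV1-/-). Cultures were kept static or stretched for 24 h, and WT static, WT stretch, CAV1-/- static and CAV1-/- stretch each had 2 cultures. The static and the stretched culture of the same genotype and replicate number were taken as 1 animal, which gives 2 WT and 2 CAV1-/- animals. The paper does not state this pairing. The labels give no age for the animals, the null allele is carried by the whole animal and not by MCs alone, and the settings of the stretching device are stated for human cells and not for these mouse cultures. The paper states that its ex vivo conditions drew equally on male and female mice, without naming the sex of these animals. The comparison asked whether stretch and loss of caveolin-1, a structural protein of plasma membrane pits that buffer membrane tension, change the transcripts of these adhesion receptors.

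Integrins are receptors made of an alpha and a beta subunit that link the extracellular matrix to the actin cytoskeleton, and cells use them to sense and to exert force. Many of those studied here bind the arginine-glycine-aspartate (RGD) motif of matrix proteins. Itga5 pairs with Itgb1 to form the main fibronectin receptor, Itga8 pairs with Itgb1 and binds nephronectin, and Itgav pairs, among these members, with Itgb1, Itgb3, Itgb5 or Itgb8. The αv integrins also bind the RGD motif in the latency peptide of TGF-beta, which lets a cell free the active cytokine from the matrix by pulling, or, for αvβ8, without a linkage of the beta tail to the actin adaptor talin. Itga9, which pairs with Itgb1, binds tenascin-C, osteopontin and an extra domain of fibronectin, mostly at sites other than RGD. In the peritoneum such receptors anchor MCs to the submesothelial matrix.

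The stretches of genome just before the start of Itga5, Itgav and Itgb1 are shown because these 3 genes, with Itgb3, passed the test on stretch described below. They come from the RefSeq promoter table on GRCm38.p6, in which 7 of the 8 members had an entry (Itgb3 had none), and each holds the 250 bases before the start, written 5′ to 3′ on the strand of the gene, at chr15:103366792-103367041 (minus strand) for Itga5, chr2:83724147-83724396 (plus strand) for Itgav and chr8:128685404-128685653 (plus strand) for Itgb1. Capitals mark matches, on either strand, to the core motifs of TEAD factors (GGAATG), AP-1 (TGANTCA), SMAD proteins (CAGAC) and the GC box (GGGCGG).
Itga5: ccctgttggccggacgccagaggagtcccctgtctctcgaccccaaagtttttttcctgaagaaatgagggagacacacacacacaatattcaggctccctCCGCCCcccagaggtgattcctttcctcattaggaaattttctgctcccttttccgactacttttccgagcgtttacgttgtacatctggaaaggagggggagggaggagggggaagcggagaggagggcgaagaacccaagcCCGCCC
Itgav: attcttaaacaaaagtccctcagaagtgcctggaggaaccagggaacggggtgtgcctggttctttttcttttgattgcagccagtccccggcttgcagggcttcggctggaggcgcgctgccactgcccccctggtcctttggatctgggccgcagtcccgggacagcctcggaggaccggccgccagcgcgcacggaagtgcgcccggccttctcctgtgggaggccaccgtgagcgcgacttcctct
Itgb1: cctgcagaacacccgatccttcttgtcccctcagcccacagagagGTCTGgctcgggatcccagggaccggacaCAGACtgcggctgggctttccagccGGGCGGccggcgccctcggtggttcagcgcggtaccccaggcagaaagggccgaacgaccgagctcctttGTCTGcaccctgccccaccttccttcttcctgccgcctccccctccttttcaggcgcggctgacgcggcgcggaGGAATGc
The Itga5 window held 2 GC boxes, which 32.7% of the 32851 windows in the table had at least once. The Itgb1 window held 1 TEAD core, 3 SMAD cores and 1 GC box, with the TEAD core starting at position -7 from the start. At least 1 TEAD core was in 12.6% of all windows, and at least 1 SMAD core in 42.2%. The Itgav window held no match, no member window had an AP-1 core (6.75% of all windows), and GC content was 55.6% for Itga5, 64.4% for Itgav and 68.0% for Itgb1. These letter matches are a description of the sequence, and no binding was measured.

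The deposited values are reads per gene relative to a TMM-scaled library total (TMM-normalized CPM, below CPM), from libraries of 9777738 to 14237503 reads in static and 15861571 to 21203938 reads in stretched cultures. Every stretched library was therefore deeper than every static one, and 3 reads corresponded to between 0.146 and 0.308 CPM, a floor that covers counting error only. Cav1, the targeted gene, lay between 247 and 764 CPM in the WT cultures and between 12.8 and 34.5 CPM in the CAV1-/- cultures. All 10 listed mesothelial markers were detected, and their summed level was 2820 to 3570 CPM in WT and 843 to 1084 CPM in CAV1-/- cultures. The summed level of 14 leukocyte markers (of 15 listed) was 5416 CPM in the static and 5161 CPM in the stretched culture of CAV1-/- animal 1, against 84.5 to 488 CPM in the other 6 cultures, and none of the 14 was at 0 in any culture. The cultures of CAV1-/- animal 1 therefore stood apart, and results below are also given without them. In RNA from whole cultures, fewer cells of a type and less RNA per cell cannot be told apart.

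The transcripts of these subunits spanned a wide range, from Itgb1, the shared partner of many alpha subunits and the most abundant member, to Itga8, the least. Per kilobase of annotated exon, the mean level over the 8 cultures was 523 CPM per kb for Itgb1, 215 for Itga5, 51.6 for Itgav, 45.9 for Itgb5, 17.5 for Itgb3, 2.39 for Itgb8, 1.16 for Itga9 and 0.265 for Itga8. Itgb1 exceeded Itga5 in 8 of 8 cultures and Itga5 exceeded Itgav in 8 of 8. Itgav and Itgb5 could not be ordered, since Itgav was higher in 4 of the 8 cultures, with ratios per kb between 0.602 and 2.14. Itgb5 exceeded Itgb3, and Itgb3 exceeded Itgb8, in all 8 cultures, although in 1 culture the ratio of Itgb3 to Itgb8 was only 1.03. Itgb8 exceeded Itga9 in 6 of 8 cultures, and Itga9 exceeded Itga8 in 8 of 8. The fibronectin receptor pair Itga5 and Itgb1 thus had the highest levels per length, and among the beta partners of Itgav the order per length was Itgb1, Itgb5, Itgb3, Itgb8.

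**Figure D1:**
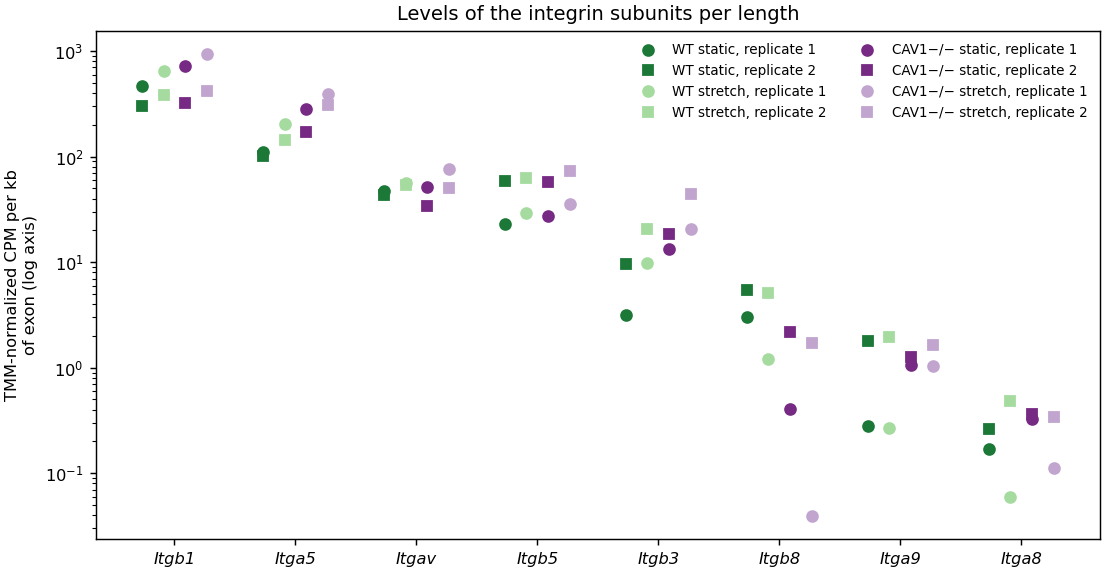
Level of each integrin subunit per kilobase of exon (TMM-normalized CPM per kb, log axis) in each of the 8 cultures, ordered by the mean; colours give genotype and condition, circles and squares replicates 1 and 2. Itgb1 (mean 523 CPM per kb) and Itga5 (mean 215) lie above the other members, and Itga8 (mean 0.265) lies lowest.

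Over the 4 animals, the transcripts of the fibronectin receptor and of the αvβ3 receptor rose on stretch. Itgb3 rose by 1.14 ± 0.14 (log2 difference ± SE), Itga5 by 0.68 ± 0.093, Itgav by 0.41 ± 0.077 and Itgb1 by 0.40 ± 0.072. These 4 of 8 members passed an adjusted p under 0.05 in the paired comparison of stretch with static, with the animal as replicate block (limma on log2 of CPM plus 1), and 2.25% of all genes tested did so. At an unadjusted p of at most 0.05, 6 of 8 members passed, 5 higher and 1 lower, against 21.6% of all genes. The median log2 difference was 0.34 over the members and -0.01 over all genes. In each of the 4 animals, Itga5, Itgav, Itgb1, Itgb3 and Itgb5 were higher in the stretched than in the static culture, a pattern seen in 14.5% of all genes, and Itgb8 was lower, a pattern seen in 16.9% of all genes. With 4 animals, an exact sign-flip permutation test of 1 gene cannot give a two-sided p below 0.125.

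**Figure D2:**
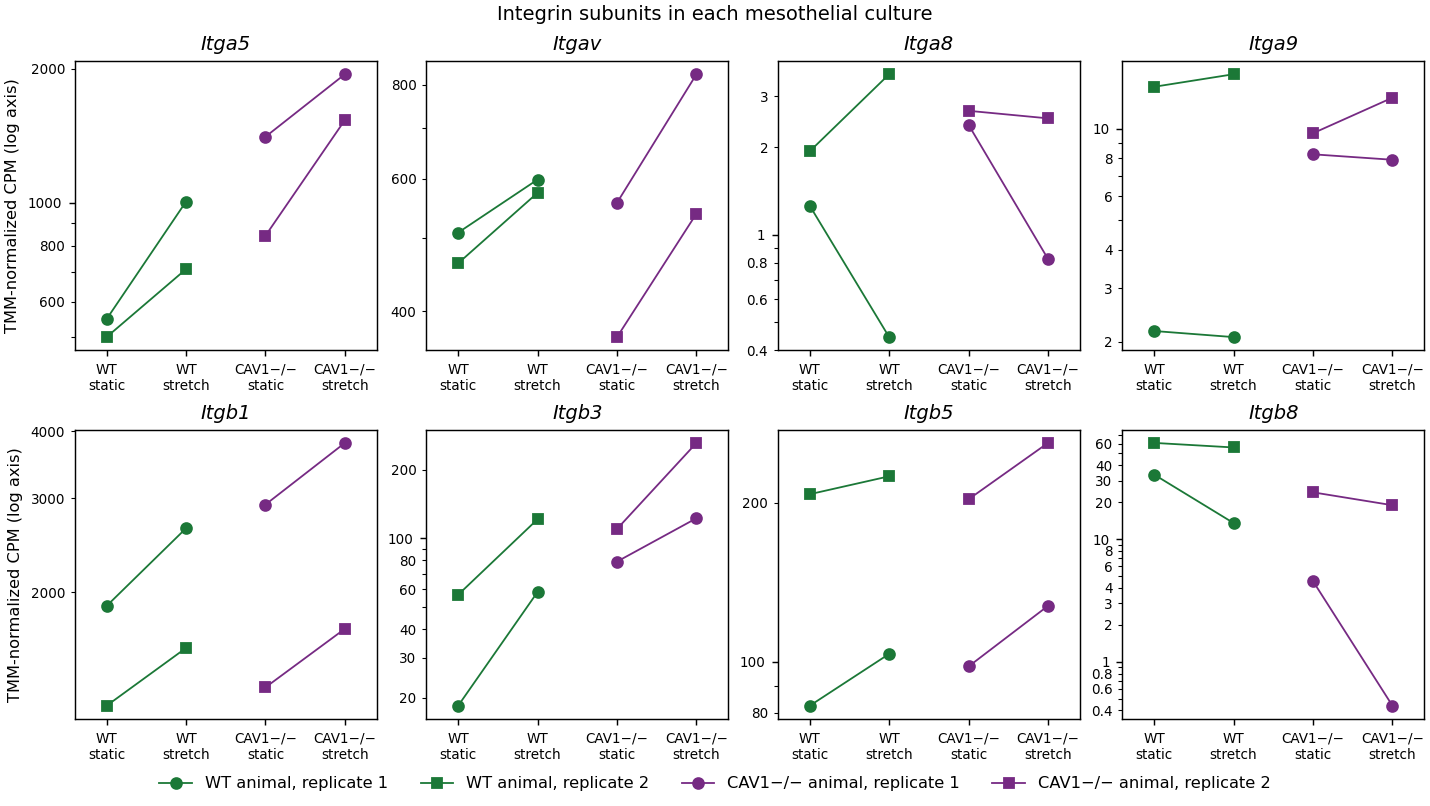
TMM-normalized CPM (log axis, scaled for each gene) of the 8 integrin subunits in the 8 cultures, with a line joining the static and the stretched culture of each animal. The lines of Itga5, Itgav, Itgb1, Itgb3 and Itgb5 rise in all 4 animals and those of Itgb8 fall, to 0.437 CPM in the stretched culture of CAV1-/- animal 1.

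Among the alpha subunits, Itga5 (ENSMUSG00000000555; GRCm38 chr15:103344286-103366763, minus strand) was measured, with replicate 1 given first here and for every gene, at 548 and 499 CPM in static WT and at 1006 and 709.6 CPM in stretched WT cultures. In CAV1-/- cultures it was at 1408 and 843 CPM without and at 1946 and 1535 CPM with stretch. In both genotypes the stretched cultures lay above the static ones without overlap, and the fold within an animal was 1.84 and 1.42 in WT and 1.38 and 1.82 in CAV1-/- animals (adjusted p = 0.0209 over the 4 animals, limma). Itgav (ENSMUSG00000027087; chr2:83724397-83806916, plus strand), the alpha subunit common to the TGF-beta-activating receptors, was at 509 and 463 CPM in static and 598 and 575 CPM in stretched WT cultures. Its CAV1-/- values were 557 and 369 CPM without and 826 and 539 CPM with stretch, so that the WT conditions were apart while the CAV1-/- conditions overlapped between animals. Its fold within an animal was 1.18 and 1.24 in WT and 1.48 and 1.46 in CAV1-/- animals (adjusted p = 0.0464, limma). Exons of Itgav share 634 bases, or 5.9% of their length, with Gm13684 on the opposite strand, and the library kit did not mark strand, so reads there cannot be assigned to either gene.

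The other alpha subunits were scarce and did not pass the test. Itga8 (ENSMUSG00000026768; chr2:12106632-12301922, minus strand) rested on 9 to 58 reads per library. It was at 1.26 and 1.94 CPM in static WT, 0.444 and 3.57 in stretched WT, 2.39 and 2.67 in static CAV1-/- and 0.825 and 2.52 in stretched CAV1-/- cultures. It was lower on stretch in 3 of 4 animals and the conditions overlapped (log2 difference -0.24 ± 0.25, adjusted p = 0.62, limma), and 372 bases of its exons (5.05%) overlap the antisense transcript E030013I19Rik. Itga9 (ENSMUSG00000039115; chr9:118606690-118901003, plus strand) rested on 31 to 245 reads per library. It was at 2.17 and 13.7 CPM in static WT, 2.07 and 15.1 in stretched WT, 8.24 and 9.66 in static CAV1-/- and 7.91 and 12.6 in stretched CAV1-/- cultures. The lowest and highest values of Itga9 were both in WT animals, and its log2 difference on stretch was 0.10 ± 0.11 (adjusted p = 0.662, limma), higher in 2 animals and lower in 2.

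Among the beta subunits, Itgb3 (ENSMUSG00000020689; chr11:104608000-104670476, plus strand), which pairs with Itgav into the vitronectin receptor, had the largest log2 rise of the members. It was at 18.5 and 56.6 CPM in static and 58.2 and 121 CPM in stretched WT cultures. The CAV1-/- values of Itgb3 were 79.1 and 110.0 CPM without and 123 and 262 CPM with stretch. Stretched and static cultures did not overlap in either genotype, and the fold within an animal was 3.15 and 2.14 in WT and 1.55 and 2.38 in CAV1-/- animals (adjusted p = 0.0164, limma). Itgb1 (ENSMUSG00000025809; chr8:128685654-128733200, plus strand) was at 1886 and 1228 CPM in static and 2634 and 1574 CPM in stretched WT cultures. For Itgb1 in CAV1-/- cultures the values were 2917 and 1329 CPM without and 3802 and 1710.0 CPM with stretch. Animals differed more in Itgb1 than conditions did, so the conditions overlapped in both genotypes, yet the fold on stretch within an animal stayed between 1.28 and 1.40 (adjusted p = 0.0443, limma).

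Itgb5 (ENSMUSG00000022817; chr16:33829665-33949338, plus strand), another beta partner of Itgav, was at 82.5 and 207 CPM in static and 103 and 224 CPM in stretched WT cultures. In CAV1-/- cultures it was at 97.9 and 203 CPM without and 128 and 259 CPM with stretch. Its fold on stretch lay between 1.08 and 1.30 within an animal, with a log2 difference of 0.29 ± 0.065 that missed the threshold (adjusted p = 0.0679, limma). Itgb8 (ENSMUSG00000025321; chr12:119158022-119238802, minus strand) was the member with lower values on stretch in all 4 animals. It was at 33.6 and 60.9 CPM in static WT, 13.5 and 55.9 in stretched WT, 4.53 and 24.1 in static CAV1-/- and 0.437 and 18.9 in stretched CAV1-/- cultures, the lowest value resting on 9 reads. The fold on stretch was 0.402 and 0.918 in WT and 0.0963 and 0.785 in CAV1-/- animals, so that the size of the difference varied widely between animals and the log2 difference of -0.91 ± 0.28 did not pass (adjusted p = 0.125, unadjusted p = 0.0133, limma).

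**Figure D3:**
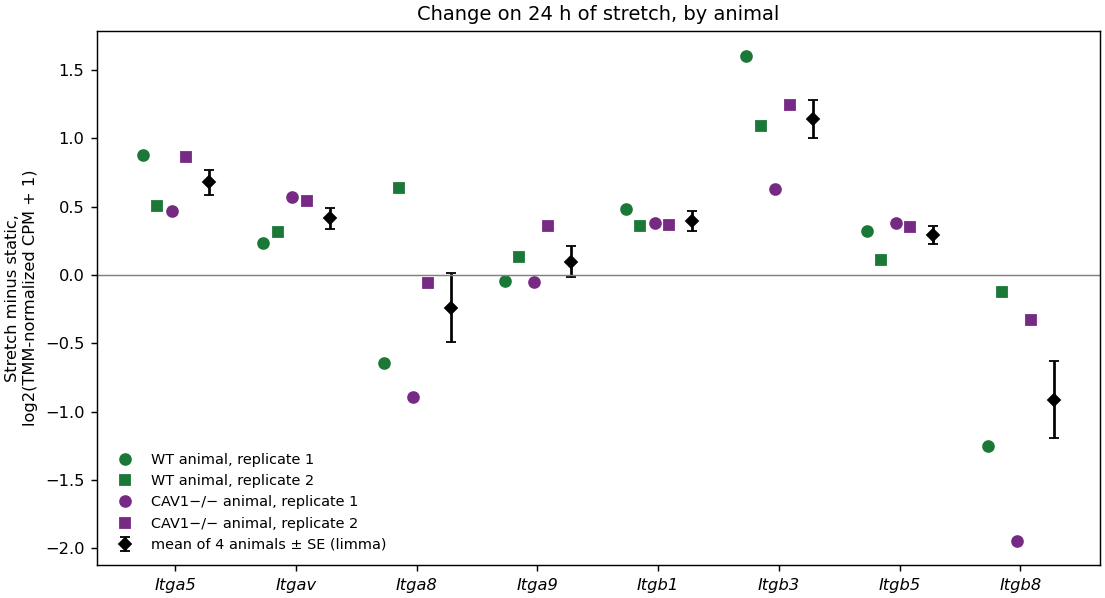
Log2 difference between the stretched and the static culture of each animal (log2 of TMM-normalized CPM plus 1) for the 8 integrin subunits, with the mean of 4 animals ± SE from limma as black diamonds. Itgb3 has the largest positive mean (1.14) and Itgb8 the lowest (-0.91), and the points of Itgb1 lie closest together.

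The calls on stretch depended on both CAV1-/- animals, on the pairing and on the intensity trend, and those of Itga5 and Itgb3 remained when a culture of either WT animal was left out. Without either culture of CAV1-/- animal 1, the one with high leukocyte markers, 0 of 8 members passed, with log2 differences and adjusted p (limma) of 1.31 and 0.0575 for Itgb3, 0.75 and 0.067 for Itga5, 0.40 and 0.12 for Itgb1 and 0.36 and 0.143 for Itgav. Without a culture of CAV1-/- replicate 2 the count was also 0, without one of WT replicate 2 it was 2 (Itga5 and Itgb3), and without one of WT replicate 1 it was 3 (Itga5, Itgav and Itgb3). Without the replicate block 0 members passed (adjusted p of 0.984 or above), and without the intensity trend of limma 0 passed, with adjusted p between 0.0581 for Itgb3 and 0.108 for Itgav. The calls over all genes, 308 of 13665 in the main fit, fell as well. They were 3 or 4 without a culture of CAV1-/- animal 1 and 0 without one of CAV1-/- replicate 2. Leaving out a culture of WT replicate 2 gave 146 or 147, and one of WT replicate 1 gave 137 or 138. Without the block 0 genes were called, and without the trend 3. The part of library depth, which followed stretch, was not tested. Marker genes of the cell types in the cultures were also compared on stretch over the 4 animals. In this comparison 2.25% of all genes passed and 21.6% had an unadjusted p of at most 0.05 (limma). Of 10 mesothelial markers, 1 passed (Upk3b, lower), 7 had an unadjusted p of at most 0.05 (2 higher and 5 lower), and the median log2 difference was -0.31. Of 11 fibroblast and mural cell markers, 1 passed (Pdgfrb, higher), 7 had an unadjusted p of at most 0.05 (2 higher and 5 lower), and the median was -0.36. Of 14 leukocyte markers, 0 passed and 2 had an unadjusted p of at most 0.05 (Lyz2 higher and Itgam lower), with a median of -0.08, against a median of -0.01 over all genes (limma). The part of these cells in the rise of the members on stretch was not tested.

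Within a single genotype the members were not called. In WT cultures 0 of 8 members passed an adjusted p under 0.05 on stretch, as did 0% of all genes, and 0 of 8 had an unadjusted p of at most 0.05, against 2.27% of all genes (limma, 2 cultures against 2). In CAV1-/- cultures both counts were again 0 of 8, against 0% and 2.09% of all genes. The log2 differences were 1.35 ± 0.64 in WT and 0.94 ± 0.64 in CAV1-/- cultures for Itgb3, and 0.69 ± 0.30 and 0.66 ± 0.30 for Itga5. For Itgav they were 0.27 ± 0.27 and 0.56 ± 0.27, and for Itgb8 -0.69 ± 1.40 and -1.14 ± 1.40. With the animal as replicate block, 5 members in WT and 6 in CAV1-/- cultures had an unadjusted p of at most 0.05, against 14.5% and 13.3% of all genes, and 0 passed after adjustment, against 0% and 0.00732% (Itgb3 adjusted p = 0.144 and 0.160, Itga5 adjusted p = 0.167 and 0.172, limma). edgeR and DESeq2 on the recovered reads called 0 of 8 members in either genotype. Over all 13665 genes, edgeR called 0 in either genotype, and DESeq2 called 3 in WT and 7 in CAV1-/- cultures. An exact permutation test of 1 gene cannot go below 0.333 with 2 cultures in each group.

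The difference between the genotypes in the response to stretch was tested as an interaction. It passed for 0 of 8 members, as for 0% of all genes, and 0 of 8 had an unadjusted p of at most 0.05, against 0.483% of all genes (limma). edgeR and DESeq2 called 0 members as well, and 0 of all genes. With the animal as replicate block, 0 passed after adjustment, against 0% of all genes, and 1 member, Itgav, had an unadjusted p of at most 0.05, against 4.25% of all genes (unadjusted p = 0.0459, adjusted p = 0.947, limma). The interaction, as the log2 response in CAV1-/- minus that in WT, was -0.03 ± 0.43 for Itga5, 0.28 ± 0.38 for Itgav, -0.05 ± 0.79 for Itgb1 and -0.41 ± 0.91 for Itgb3. These standard errors, from the fit without the block, are as large as many of the responses themselves.

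Between genotypes, Itga5 and Itgb3 had higher values in CAV1-/- than in WT cultures in both conditions, and Itgb8 had lower means, but no member passed after adjustment. For Itga5 the mean was 1126 ± 399 CPM in static CAV1-/- and 524 ± 34.3 in static WT cultures (SD, n = 2), a fold of 2.15 and a log2 difference of 1.06 ± 0.30 (unadjusted p = 0.0124, adjusted p = 0.376, limma). On stretch the means of Itga5 were 1740.2 ± 290.4 and 858 ± 210 CPM (SD, n = 2), a fold of 2.03 (log2 difference 1.03 ± 0.30, unadjusted p = 0.0138, adjusted p = 0.516, limma). For Itgb3 the log2 difference was 1.49 ± 0.64 without stretch (adjusted p = 0.636, limma) and 1.08 ± 0.64 with stretch (adjusted p = 0.947, limma). Both CAV1-/- cultures lay above both WT cultures in static and in stretched condition for these 2 of 8 members, against 6.37% of all genes, and both lay below in both conditions for 0 of 8, against 9.24%. The static and stretched cultures of an animal share that animal, so these are 2 animals against 2.

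In static culture 0 of 8 members passed an adjusted p under 0.05 between genotypes, against 0.0732% of all genes, and 1 of 8 (Itga5) had an unadjusted p of at most 0.05, against 8.17%. In stretched culture the counts were 0 of 8, against 0.0585%, and 1 of 8 (Itga5), against 6.26%. edgeR called 0 members in both conditions, and DESeq2 called Itga5 in static culture (adjusted p = 0.0286). Over all 13665 genes, edgeR called 2 in static and 6 in stretched culture, and DESeq2 called 309 and 238. Itgb8 was lower in both static CAV1-/- cultures than in both WT cultures (log2 difference -1.97 ± 1.40, adjusted p = 0.826, limma). On stretch its values overlapped, 18.9 CPM in 1 CAV1-/- culture against 13.5 in 1 WT culture (log2 difference -2.43 ± 1.40, adjusted p = 0.936, limma). The remaining members, Itgav, Itga8, Itga9, Itgb1 and Itgb5, had log2 differences between -0.10 and 0.54 in static and between -0.02 and 0.65 in stretched culture, each within about 1 SE or less of 0.

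**Figure D4:**
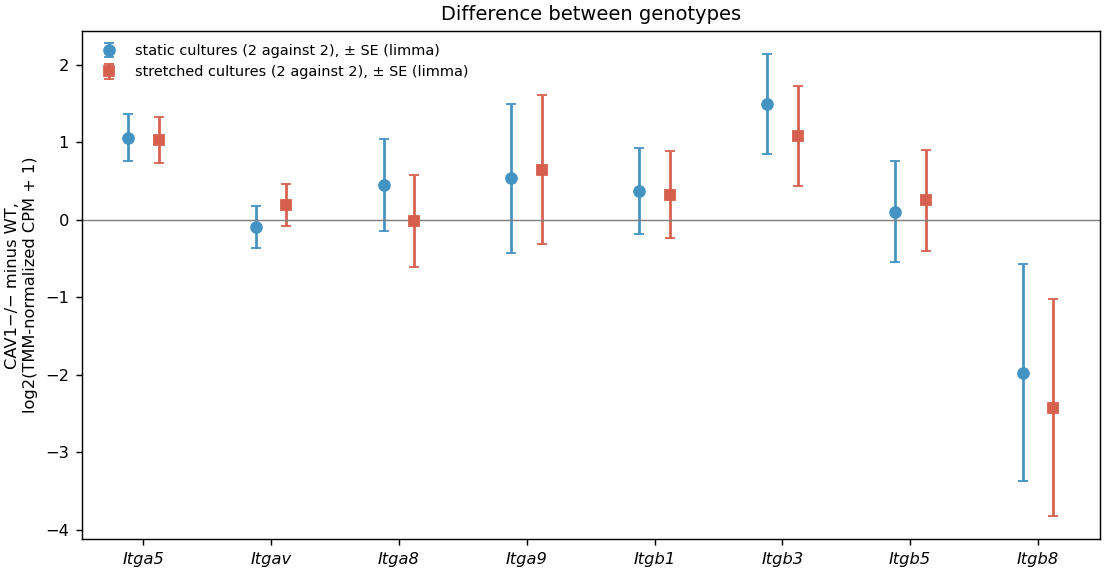
Log2 difference between CAV1-/- and WT cultures (log2 of TMM-normalized CPM plus 1, ± SE from limma) of the 8 integrin subunits without stretch (circles) and with stretch (squares), each 2 cultures against 2. Itga5 (1.06 and 1.03) has the smallest error relative to its size, and the error bars of Itgb8 span more than 1 log2 unit on either side.

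The genotype differences were also taken without CAV1-/- animal 1, which had the high leukocyte markers. Without the cultures of CAV1-/- animal 1, the log2 difference of Itga5 was 0.69 in static and 0.86 in stretched culture. That of Itgb3 was 1.73 and 1.63. These values set CAV1-/- replicate 2 alone against both WT replicates. Itgb3 and Itgb8 were higher, and Itga5 and Itgb1 lower, in replicate 2 than in replicate 1 of every group. Within replicate 2 alone, Itgb3 was at 110.0 CPM in CAV1-/- against 56.6 in WT static culture, and at 262 against 121 stretched. For Itga5 these values were 843 against 499 and 1535 against 709.6 CPM. Summed leukocyte markers within replicate 2 alone were 342 CPM in CAV1-/- against 84.5 in WT static culture, and 376 against 91.7 stretched. In WT replicate 1 they were 480 CPM static and 488 CPM stretched. The part of these cells in the genotype values was not tested. The differences of Itgb8 without animal 1 were -0.88 and -0.53. Within replicate 2 alone, Itgb8 was at 24.1 CPM in CAV1-/- against 60.9 in WT static culture, and at 18.9 against 55.9 stretched. For Itgb1 the differences of 0.37 without and 0.32 with stretch became -0.20 and -0.25 without that animal. Within replicate 2 alone, Itgb1 was at 1329 CPM in CAV1-/- against 1228 in WT static culture, and at 1710 against 1574 stretched. Its sign thus also depended on which WT cultures were used. The mesothelial markers were lower in CAV1-/- cultures, 10 of 10 in direction in both conditions and 2 of 10 past the adjusted threshold in each, and their part in the genotype values was not tested.

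Animals of the same genotype also differed in a way that repeated in all 4 groups. Itga8, Itga9, Itgb3, Itgb5 and Itgb8 were higher in replicate 2 than in replicate 1 of every group, against 21.4% of all genes, and Itga5, Itgav and Itgb1 were lower in replicate 2 of every group, against 21.7%. The fold of replicate 2 over replicate 1 lay between 2.03 and 2.52 for Itgb5, between 1.39 and 3.06 for Itgb3 and between 1.81 and 43.2 for Itgb8. For Itgb1 it lay between 0.45 and 0.651, and for Itga5 between 0.599 and 0.911. The abundant fibronectin receptor subunits and the scarcer β3, β5 and β8 subunits were thus on opposite sides of this split. Static and stretched cultures of a replicate were taken as the same animal, so the split then describes 4 animals, and the numbers join different animals across genotypes. Of 11 fibroblast and mural cell markers, 6 (Pdgfra, Pdgfrb, Thy1, Dcn, Lum and Tcf21) were also higher in replicate 2 of every group and 4 (Acta2, Des, Myh11 and Cnn1) lower. The summed level of all 11 was 4100 to 4962 CPM in replicate 2 and 4215 to 7593 CPM in replicate 1. Acta2, the largest part of these sums, was at 1932 to 2774 CPM in replicate 2 and 3144 to 6045 CPM in replicate 1. Of 14 leukocyte markers, 13 were lower in replicate 2 of every group, on the same side as Itga5, Itgav and Itgb1. Their summed level was 480 CPM in replicate 1 and 84.5 in replicate 2 of static WT, and 488 and 91.7 of stretched WT cultures. In CAV1-/- cultures the sums were 5416 and 342 CPM without and 5161 and 376 CPM with stretch. Lyz2, the largest part of these sums, was at 3648 and 201 CPM without and 3920 and 231 CPM with stretch. The part of these cells, and of the sex of the animals, in the split was not tested.

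The matrix ligands of these receptors moved in both directions on stretch. Of 17 ligands measured (18 listed, Vtn not analysed here), 2 passed the paired comparison over the 4 animals, against 2.25% of all genes. These were Postn, higher, and Fbln5, lower. An unadjusted p of at most 0.05 was seen for 7 (2 higher and 5 lower), against 21.6% of all genes (limma). The median log2 difference was -0.06. Postn, or periostin, a ligand of αv integrins, was at 28.6 and 414 CPM in static WT, 106 and 777 in stretched WT, 86.8 and 153 in static CAV1-/- and 225 and 278 in stretched CAV1-/- cultures. It rose in 4 of 4 animals, by 1.25 ± 0.16 (adjusted p = 0.0166, limma), with a fold of 1.82 to 3.71 within an animal. Fbln5, or fibulin-5, an RGD protein of elastic fibres, fell by 0.44 ± 0.074 (adjusted p = 0.0359, limma) and was lower in 4 of 4 animals. It was at 186 and 148 CPM in static WT, 143 and 125 in stretched WT, 68.5 and 69.6 in static CAV1-/- and 45.2 and 47.1 in stretched CAV1-/- cultures, so that every CAV1-/- culture lay below every WT culture (genotype log2 difference -1.25 ± 0.14 without stretch, adjusted p = 0.0667, and -1.52 ± 0.14 with stretch, adjusted p = 0.0548, limma).

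Fn1, or fibronectin, the ligand of Itga5 with Itgb1, was among the most abundant transcripts, at 15923 and 13884 CPM in static WT, 9934 and 9708 in stretched WT, 12498 and 22899 in static CAV1-/- and 9031 and 21206 in stretched CAV1-/- cultures. It was lower on stretch in 4 of 4 animals, with a fold between 0.624 and 0.926, and the log2 difference of -0.44 ± 0.14 did not pass (adjusted p = 0.126, limma). The receptor transcripts Itga5 and Itgb1 were higher in the same cultures. Spp1, or osteopontin, was at 84.2 and 255 CPM in static WT, 294 and 470.5 in stretched WT, 562 and 947 in static CAV1-/- and 626 and 1665 in stretched CAV1-/- cultures. It was higher on stretch in 4 of 4 animals (0.91 ± 0.22, adjusted p = 0.0776, limma) and higher in CAV1-/- than in WT cultures without overlap in each condition (log2 difference 2.31 ± 0.68, adjusted p = 0.4, and 1.45 ± 0.68, adjusted p = 0.871, limma). Tnc, or tenascin-C, was higher in 3 animals and lower in 1 (0.09 ± 0.17, adjusted p = 0.786, limma), with values between 774 and 3068 CPM that overlapped throughout.

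Of 10 genes of the latent TGF-beta complex measured, 1 passed on stretch, against 2.25% of all genes. This was Furin, the protease that cuts the TGF-beta precursor. It was at 127 and 174 CPM in static WT, 188 and 199 in stretched WT, 176 and 168 in static CAV1-/- and 317 and 244 in stretched CAV1-/- cultures. All 4 stretched cultures lay above all 4 static ones, and Furin rose by 0.53 ± 0.099 (adjusted p = 0.0464, limma). Tgfb1 was at 57.4 and 76.4 CPM in static WT, 66.0 and 105 in stretched WT, 85.4 and 68.8 in static CAV1-/- and 90.4 and 119 in stretched CAV1-/- cultures. It was higher on stretch in 4 of 4 animals (0.38 ± 0.11, adjusted p = 0.118, limma). Tgfb3 was lower in 3 of 4 animals (-0.39 ± 0.11, adjusted p = 0.11, limma), with means of 187 CPM static and 139 CPM stretched. Tgfb2, at means of 18.5 and 17.8 CPM, was higher in 2 animals and lower in 2 (-0.12 ± 0.18, adjusted p = 0.743, limma), and in stretched cultures it had a genotype log2 difference of 1.02 ± 0.31 (adjusted p = 0.551, limma). Ltbp3, which tethers the latent complex to the matrix, had lower values in CAV1-/- cultures (-0.95 ± 0.29 without and -0.72 ± 0.29 with stretch, adjusted p = 0.438 and 0.787, limma). The median log2 difference on stretch over the 10 genes was -0.01.

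The cytoplasmic side of the receptors showed no call on stretch, and its counts were near the shares over all genes. Of 23 integrin adaptors and activators measured, 0 passed after adjustment, against 2.25% of all genes, with a median log2 difference of -0.03. An unadjusted p of at most 0.05 was seen for 5, 1 higher and 4 lower, against 21.6% of all genes (limma). With the largest differences among these, Dab2, an endocytic adaptor of integrin beta tails, was lower in 4 of 4 animals (-0.49 ± 0.14, adjusted p = 0.112, limma) and Lims2, a partner of integrin-linked kinase, was at -0.29 ± 0.068 (adjusted p = 0.0747, limma). DESeq2 on the recovered reads called Dab2 (adjusted p = 0.035) and Tgfb3 (adjusted p = 0.0463). Further genes that missed the threshold in the main fits passed in some alternative fit. These were Itga1 on stretch, Tln2 between genotypes in stretched culture and Spp1 between genotypes in static culture. Fbln5 and Itga2 did so between genotypes in both conditions. Between genotypes Dab2 had lower values in CAV1-/- cultures (-1.11 ± 0.42 and -1.04 ± 0.42, adjusted p = 0.565 and 0.789, limma), as did Tenc1, a tensin, in static culture (-0.50 ± 0.21, adjusted p = 0.608, limma). Tln2, a talin that activates integrins, had higher values in stretched CAV1-/- than in stretched WT cultures (0.82 ± 0.15, adjusted p = 0.22, limma).

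Among 10 other integrin subunits measured (of 11 listed), 1 passed on stretch, against 2.25% of all genes. Itga2, the collagen-binding partner of Itgb1, rose by 0.87 ± 0.12 (adjusted p = 0.0217, limma) and was higher in 4 of 4 animals. Its level was low, 0.7 and 0.565 CPM in static WT, 2.27 and 1.97 in stretched WT, 4.20 and 2.67 in static CAV1-/- and 7.57 and 5.91 in stretched CAV1-/- cultures, without overlap between conditions in either genotype or between genotypes in either condition. Itga1, also a collagen-binding partner of Itgb1, was lower on stretch (-0.48 ± 0.10, adjusted p = 0.0598, limma). Itgb4, the hemidesmosome subunit, had lower values in CAV1-/- cultures (-2.14 ± 0.56 and -1.86 ± 0.56, adjusted p = 0.324 and 0.551, limma). Of the RGD-binding subunits outside the members, Itgb6 was listed but not among the genes measured. Itga2b, the platelet partner of Itgb3, was at 2.04 to 9.37 CPM and lower on stretch in 4 of 4 animals (-0.49 ± 0.13, adjusted p = 0.0896, limma), while Itgb3 rose. Without CAV1-/- animal 1, the adjusted p was 0.0933 for Postn, 0.12 for Fbln5, 0.129 for Furin and 0.0833 for Itga2 (limma), with the same directions.

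**Figure D5:**
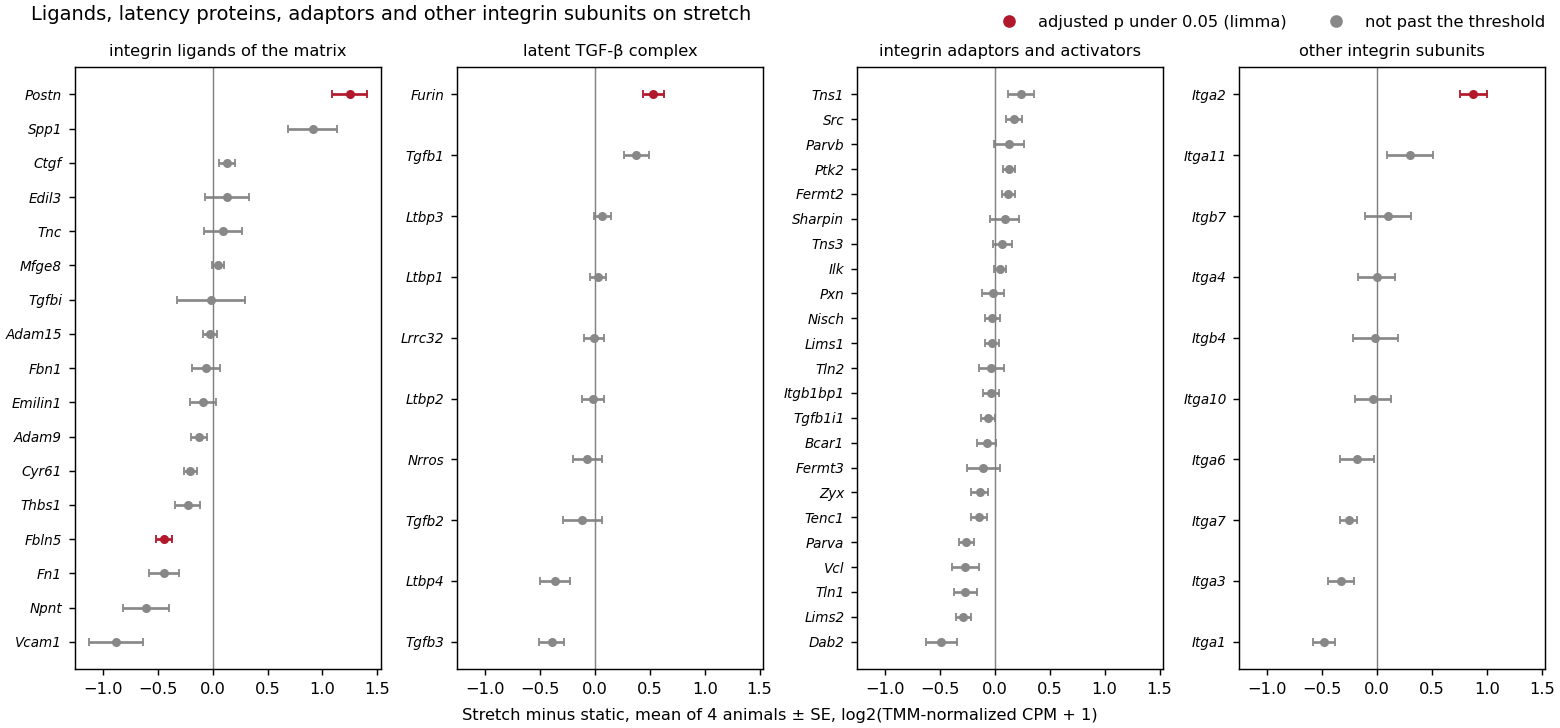
Log2 difference between stretched and static cultures (mean of 4 animals ± SE, log2 of TMM-normalized CPM plus 1) for matrix ligands, genes of the latent TGF-beta complex, integrin adaptors and other integrin subunits. Red points passed an adjusted p under 0.05 (limma), namely Postn, Furin and Itga2 on the higher side and Fbln5 on the lower side.

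The profiles of the members over the 8 cultures were also set against that of all genes with a mean of at least 5 CPM, by the root mean square difference of centred log2 values, as a description. Nearest to Itga5 were Nabp1 (0.14) and Ptgs2os2 (0.18), against a range of 1.96 for Itga5 itself. Dock5 (0.08) and Otud3 (0.10) were nearest to Itgav, and Bhlhe40 (0.11) and Galnt7 (0.12) to Itgb1. Has2 (0.17) and Slc6a17 (0.27) were nearest to Itgb3, whose own range was 3.76, and Snai1 (0.12) and Cblb (0.12) to Itgb5. Ctsk (0.13) and Mitf (0.20) were nearest to Itga8, and Mtcl1 (0.19) and Egr2 (0.23) to Itga9. No member was among the 2 genes nearest to another member.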

How the data were processed

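RNA of cultured mouse MCs was sequenced as unstranded polyA libraries. The authors trimmed reads with Cutadapt, estimated reads per gene with RSEM on the GRCm38 transcriptome, normalized them by TMM (edgeR) and deposited that signal, a TMM-normalized CPM, for each gene and library. The deposited values are whole multiples of 1 read in each library, from which reads were recovered (100% of values whole within 0.01 reads).

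Genes with at least 1 CPM in at least 2 of the 8 libraries were kept, which removed 22 of 13687. Values were compared as log2(CPM + 1) with limma (version 3.58.1, R version 4.3.3), eBayes with an intensity trend and Benjamini-Hochberg adjustment over 13665 genes. Stretch in each genotype, genotype in each condition and the interaction used 1 mean per group (4 residual degrees of freedom). The average stretch effect used the animal as replicate block (3 residual degrees of freedom). Both cultures of a genotype with the same replicate number in the sample titles were taken as 1 animal. Static and stretched deviations from the group means correlated across genes (r = 0.703 in WT and 0.85 in CAV1-/-). Same-numbered cultures of the other genotype, from different animals, also correlated (r = 0.522 static, 0.484 stretched). The correlation alone therefore cannot show a shared animal. The paper states more replicates per condition for this experiment than the 2 cultures per group of the labels and the deposited table, which were used here. The labels do not say that cultures were otherwise separate, so p-values measure the spread between these cultures. Fold changes on this scale understate changes of low genes.

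The comparisons were repeated with edgeR 4.0.16 (quasi-likelihood) and DESeq2 1.42.0 on recovered reads, with a pseudocount of 0.1 or 5, without the filter on low values or with a minimum mean of 5 CPM (10797 genes), after median-of-ratios rescaling, without the intensity trend, with the other choice of block, on the 4 libraries compared alone, and leaving out each culture or CAV1-/- animal 1. The scripts were tested on simulated data. Members and lists were chosen with earlier results of these data known. Named were all members, Cav1, Fn1, Spp1, Tnc and Tgfb1 to Tgfb3, the genes of the lists past the adjusted threshold, at most 2 per list and comparison with the largest difference among those at an unadjusted p of at most 0.05, and the 2 genes nearest to each member (for Itgb8 not reported here). Gene positions were taken from GENCODE M21 (GRCm38), which held 13597 of the identifiers. Duplicate symbols (11) occurred among the genes measured, none of them among the members or the listed genes.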

Additional observations from a re-analysis of the deposited data

How the results depend on the processing

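The number of members called on stretch over the 4 animals, 4, became 0 without the intensity trend, 0 with no replicate block and 0 with CAV1-/- animal 1 left out, and lay between 0 and 3 when single cultures were left out (0 without a culture of either CAV1-/- animal, 2 without one of WT replicate 2, 3 without one of WT replicate 1). It was 3 with edgeR and with a pseudocount of 5, which lost Itgav (adjusted p = 0.0504 and 0.0502), and 5 with DESeq2, which added Itgb5 (adjusted p = 0.0128). The log2 differences of Itga5, Itgav, Itgb1, Itgb3, Itgb5 and Itgb8 on stretch kept their sign in every alternative of this comparison, from 0.99 to 1.31 for Itgb3 and from 0.61 to 0.75 for Itga5. Between genotypes in static culture the number called, 0, became 1 (Itga5) with the replicate block (adjusted p = 0.0482), which there pairs different animals of the same number (r = 0.522 across genes in static and 0.484 in stretched culture), and 1 (Itga5) with DESeq2. In stretched culture the block gave 0 members, with Itga5 at an adjusted p of 0.0691. Leaving CAV1-/- animal 1 out reversed Itgb1 between genotypes (-0.20 static, -0.25 stretch), Itgav (-0.12) and Itga8 (0.45) between genotypes on stretch, and the interactions of Itga5 (0.17) and Itgb8 (0.35). The stretch difference of Itga8 in WT, -0.0038, reversed to 0.052 with a pseudocount of 5, 0.0023 after rescaling, 0.32 with edgeR and 0.33 with DESeq2. Its genotype difference on stretch reversed to 0.14 with a pseudocount of 0.1, and the interaction of Itgb8 to 0.040 with a pseudocount of 5. The cause of these reversals was not tested.

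With single cultures left out, which leaves 1 culture in a group whose spread is then borrowed from the others, the signs of small differences also changed. In WT, stretch differences ranged from -0.84 to 0.83 for Itga8, -1.15 to 1.24 for Itga9, -0.44 to 0.88 for Itgb5 and -1.67 to 0.30 for Itgb8. In CAV1-/- cultures they ranged from -0.16 to 0.46 for Itga9, -0.20 to 0.95 for Itgb1, -0.16 to 0.89 for Itgb5 and -3.03 to 0.76 for Itgb8. Genotype differences in static culture ranged from -0.39 to 0.20 for Itgav, -0.57 to 1.65 for Itga9, -0.20 to 0.94 for Itgb1 and -0.55 to 0.77 for Itgb5. On stretch they ranged from -0.12 to 0.49 for Itgav, -0.85 to 0.81 for Itga8, -0.55 to 1.84 for Itga9, -0.25 to 0.90 for Itgb1 and -0.30 to 0.81 for Itgb5. Interactions ranged from -0.40 to 0.34 for Itga5, -0.024 to 0.59 for Itgav, -1.31 to 0.36 for Itga8, -1.09 to 1.30 for Itga9, -0.62 to 0.53 for Itgb1, -1.19 to 0.37 for Itgb3, -0.51 to 0.81 for Itgb5 and -2.35 to 1.44 for Itgb8. The genotype differences of Itga5 and Itgb3 stayed positive in every alternative.

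Over all genes, 308 were called on stretch over the animals, against 3 without trend, 0 without the block, 4 without CAV1-/- animal 1 and 777 with DESeq2. The number was 289 with edgeR, 256 with a pseudocount of 5, and between 0 and 147 when single cultures were left out. Between genotypes 10 were called in static culture, against 246 with the block, 309 with DESeq2, 6 without trend, 2 with edgeR and 0 on 4 libraries or without CAV1-/- animal 1, and 8 on stretch, against 110 with the block, 238 with DESeq2 and 0 on 4 libraries or without that animal. For stretch within a genotype, DESeq2 called 3 genes in WT and 7 in CAV1-/- cultures, and the animal block called 0 and 1. The block changed no other adjusted call of a member. Itga8 rested on 9 to 58 reads and Itgb8 on as few as 9, which limits the precision of their differences.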
